A study of Mus musculus with 6 samples.

Results

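The clustered protocadherins are 58 genes of mouse chromosome 18, chosen here by symbol from the 31245 genes of the deposited table (14 of the alpha, 22 of the beta and 22 of the gamma cluster). All 58 annotated genes with a matching symbol were in the table and were above 0 in at least 2 of the 6 libraries, as the choice required. In the mm10 build the clusters lie on the plus strand, alpha at 36930184 to 37187661, beta at 37264938 to 37524479 and gamma at 37661793 to 37841873. RNA came from 6 primary cortical neuronal cultures, made from mouse pups of postnatal day 1 and kept for 12 to 13 days in vitro. 3 cultures received NGPF2, the agent under test, at 1.5 ng/ml for 2 h, and 3 received the vehicle, PBS, for the same 2 h. The labels give no strain, genotype or sex. According to the series these are 3 pairs, each from an experiment of its own. Cultures with the same replicate number were taken as a pair. Per library, the total count ran from 17478070 to 45193691 in the NGPF2 cultures and from 24311967 to 44788235 in the vehicle cultures.

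Clustered protocadherins are cadherin-like adhesion proteins of the neuronal surface. Each gene of the alpha and gamma clusters joins 1 variable exon, with a promoter of its own, to constant exons that the whole cluster shares, whereas beta genes lack constant exons. A single neuron uses a small set of the alpha, beta and gamma A and B promoters, in part at random. Their products bind like products on a facing membrane, so that sister branches of a neuron recognise and avoid each other. The C types (Pcdhac1, Pcdhac2, Pcdhgc3, Pcdhgc4 and Pcdhgc5) are used more uniformly by neurons. CTCF and cohesin, which loop the promoters to distant enhancers, and DNA methylation take part in promoter choice.

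The shared exons bear on every alpha and gamma value. In the GENCODE M21 annotation of the same build, 2860 to 2864 exonic bases of each alpha gene and 2116 to 3157 of each gamma gene belong to another member as well. Among beta genes only Pcdhb21 and Pcdhb22 overlap, by 455 bases. How the authors assigned a read from shared bases is not given in the sources used here, nor is the strand setting. The lowest alpha value of any library was 17.4 normalized counts (Pcdha8 in vehicle 1) and the lowest gamma value was 34.1 (Pcdhgb8 in NGPF2 3), so a count added alike to every gene of a cluster was no larger than these in those libraries. Antisense genes overlap exons of some gamma members, among them Gm26672 over 4 and BC037039 over 1, Pcdhgc3. At most 189 normalized counts were listed for BC037039 and at most 88.3 for Gm26672 in any library. On the same strand as the members, the protein-coding genes Gm37013, Gm37388 and Gm42416 each overlap exons of 23 members. None of them has values in the table.

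All 58 members passed the filter for testing, a mean of at least 10 normalized counts, and 57 were above 0 in all 6 libraries. Pcdhb1 lay just inside it with the lowest mean of the 58. Values below are normalized counts (the count divided by the size factor of its library), in the order of replicates 1, 2 and 3 of each group. Levels of different genes are compared as the count of the whole gene per kilobase of exonic bases that no other member shares. Alpha and gamma counts may hold reads from shared bases, which this length leaves out. Differences are log2(normalized count + 1), NGPF2 minus vehicle, and adjusted p-values are from limma with Benjamini-Hochberg adjustment over 16653 genes. Rose and fell refer to an adjusted p under 0.05.

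**Figure D1:**
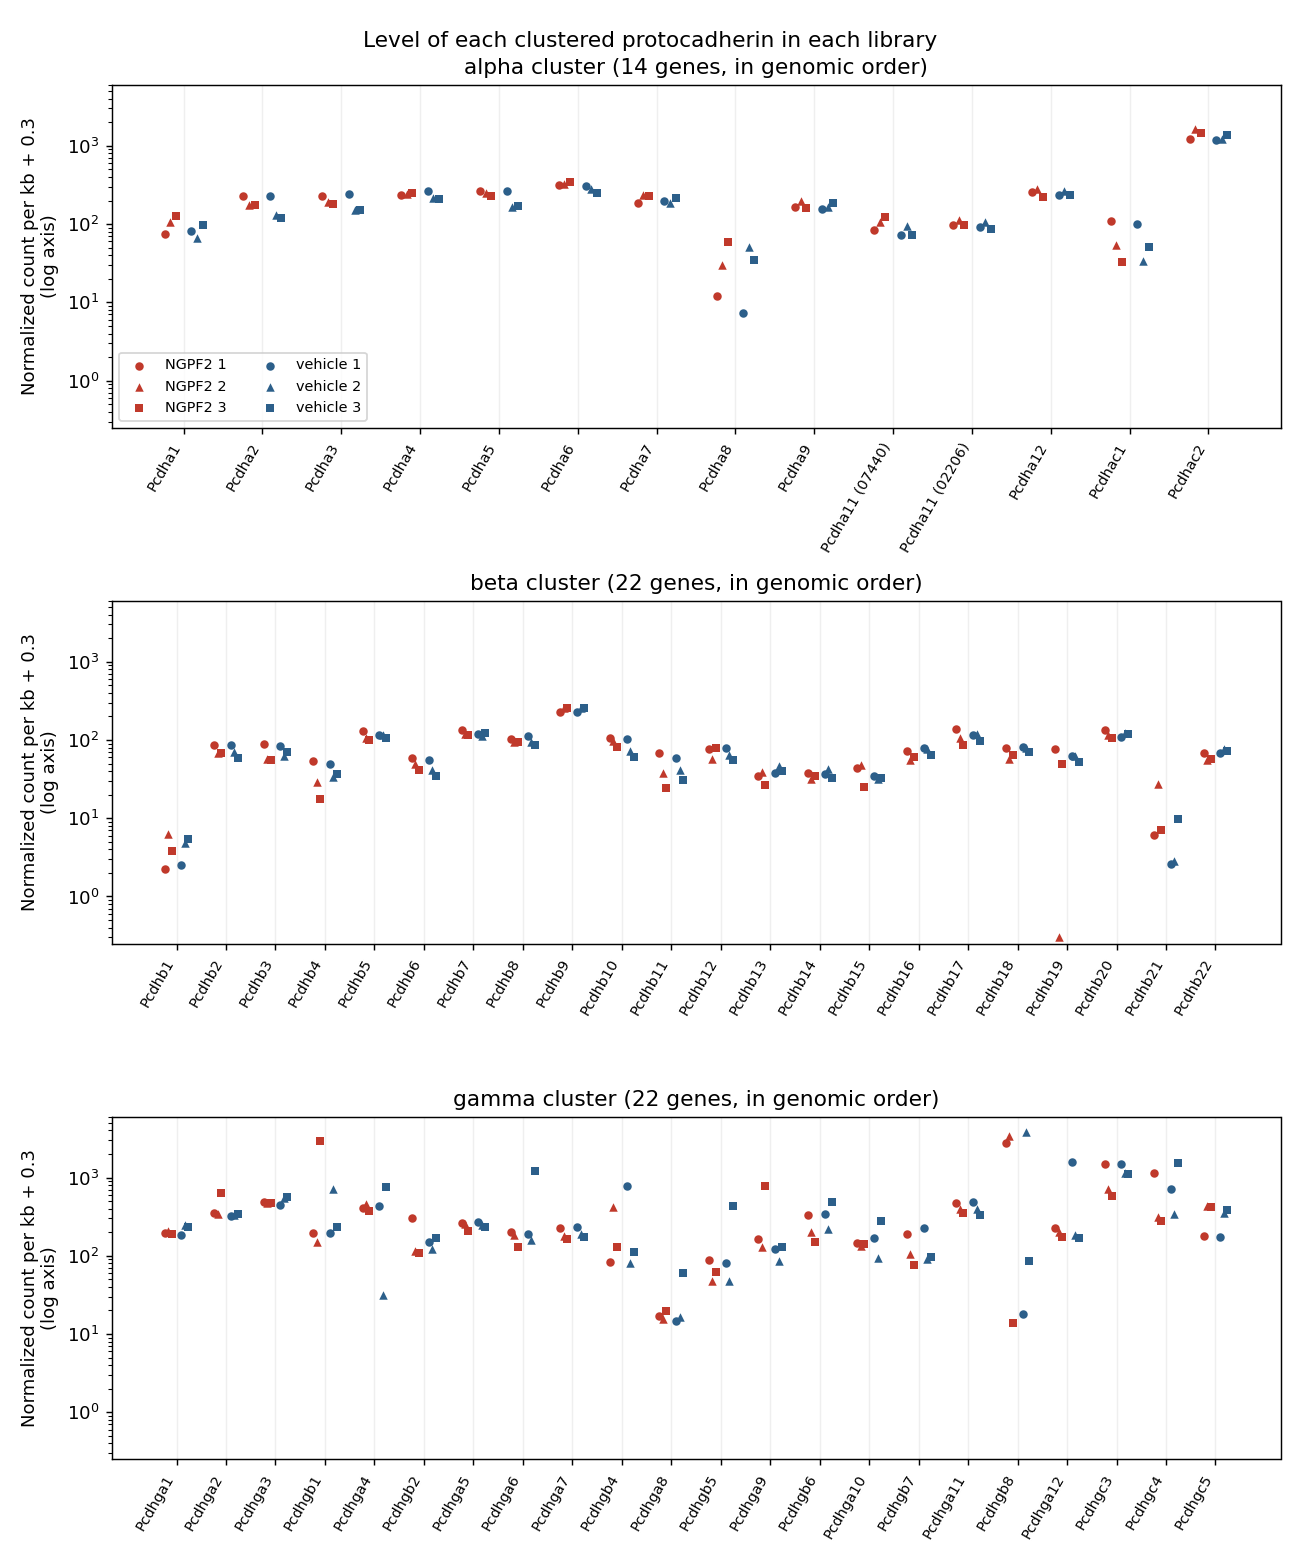
Normalized count of the whole gene divided by the kilobases of exonic sequence not shared with another member, plus 0.3, on a log axis. Each clustered protocadherin is shown in genomic order (points: the 3 NGPF2 and 3 vehicle libraries). Points of 1 gene lie close together for most alpha and beta genes, and spread over more than a factor of 10 for gamma genes such as Pcdhgb8, Pcdhgb1 and Pcdhga4. The lone point at the bottom of the beta panel is Pcdhb19, at 0 in NGPF2 2.

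Pcdhac2, the last alpha gene, which in mice is needed for the spacing of serotonergic axons, stood highest of its cluster, at a mean of 1349 per kilobase over the 6 libraries. Pcdha6 (304 per kilobase) and Pcdha12 (250) came next, and Pcdha8 was lowest at 32.2. The order depends on the length used. By the whole exonic length Pcdhac2 was at 694 and Pcdha6 at 142, and Pcdha4 (119) came before Pcdha12 (116). By bases shared with no other gene, 404 for Pcdha4, that gene was at 1697.5, above Pcdhac2. Pcdhac2 alone held 38.6%, 44.8% and 43.2% of the summed alpha counts in the NGPF2 libraries and 38.3%, 42.1% and 45.8% in the vehicle libraries. In the beta cluster Pcdhb9 led at 247 per kilobase, followed by Pcdhb7 (119) and Pcdhb20 (118), and the cluster ended with Pcdhb21 (8.92) and Pcdhb1 (3.87). The median member stood at 182 per kilobase in the alpha, 67.9 in the beta and 306 in the gamma cluster. Any reads from shared bases would raise the alpha and gamma medians against that of beta, by an amount not known here. In the gamma cluster the highest means were those of Pcdhgb8 (1682 per kilobase), Pcdhgc3 (1092) and Pcdhgb1 (732). By the whole exonic length Pcdhgc4 (448) came before Pcdhgb1 (332), and by bases shared with no other gene Pcdhgc3 (2026) stood above Pcdhgb8. The means of Pcdhgb8 and Pcdhgb1 rest on libraries that differ widely, as given next.

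Single gamma A and B genes took very unequal counts from library to library, while the sum over the 19 lay between 16705 and 20235. Pcdhgb8, annotated as a polymorphic pseudogene, was at 6993, 8420 and 34.1 in the NGPF2 libraries, against 44.5, 9508 and 215 in the vehicle libraries. High and low libraries occurred in both groups, and those of replicates 2 and 3 split the same way in both. Pcdhgb1 was at 515, 390 and 7624 in the NGPF2 libraries, against 511, 1868 and 615 in the vehicle libraries. Pcdhga12 was at 1023, 919 and 797, against 7074, 829 and 762. For Pcdhgb1 and Pcdhga12 a single library lay far above the rest, NGPF2 3 for Pcdhgb1 and vehicle 1 for Pcdhga12.

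The member holding most counts among the 19 A and B types changed with the library. It was Pcdhgb8 in NGPF2 1 (36.8% of the A and B sum), Pcdhgb8 in NGPF2 2 (42.9%) and Pcdhgb1 in NGPF2 3 (38.9%). Among vehicle libraries it was Pcdhga12 in replicate 1 (35.3%), Pcdhgb8 in replicate 2 (47.0%) and Pcdhga6 in replicate 3 (18.8%). The sum of the A and B types was 18984, 19628 and 19591 with NGPF2, against 20017, 20235 and 16705 with vehicle. Without the highest member, the other 18 summed to between 11208 and 11991 with NGPF2 and between 10728 and 13569 with vehicle.

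**Figure D2:**
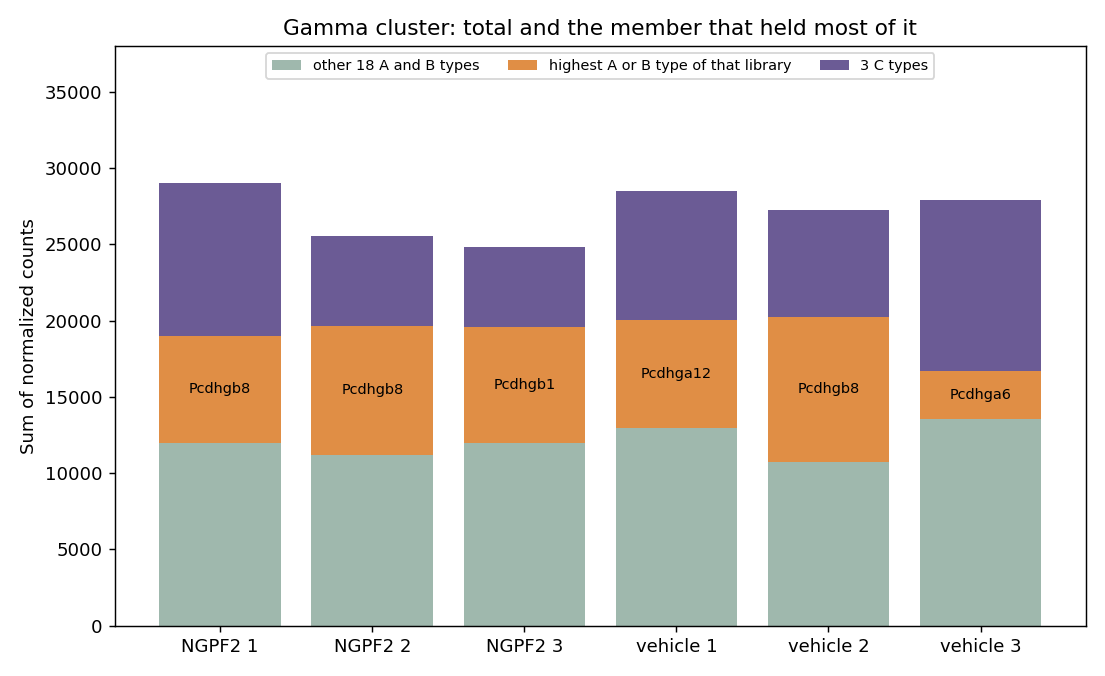
Summed normalized counts of the 22 gamma genes in each of the 3 NGPF2 and 3 vehicle libraries, split into the highest A or B type of that library (named), the other 18 A and B types and the 3 C types. The highest A or B type is Pcdhgb8, Pcdhgb8 and Pcdhgb1 in NGPF2 1, 2 and 3, and Pcdhga12, Pcdhgb8 and Pcdhga6 in vehicle 1, 2 and 3, while the A and B sum lies between 16705 and 20235.

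More gamma genes showed such jumps. Pcdhga6 was at 528, 478 and 337 in the NGPF2 libraries, against 498, 419 and 3136 in the vehicle libraries, and Pcdhgb5 at 400, 215 and 285, against 368, 218 and 1993. Vehicle 3 was the high library for both. Pcdhga9 stood at 570, 446 and 2735 with NGPF2, against 421, 299 and 443 with vehicle. Pcdhga4 stood at 638, 722 and 592 with NGPF2, against 682, 49.1 and 1194 with vehicle. Pcdhga9 was high in NGPF2 3 alone, and Pcdhga4 was low in vehicle 2 alone.

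The clusters differed in how often this occurred. Among genes averaging at least 100 normalized counts, 20 of 126 gamma values (15.9%) lay more than 2-fold from the median of their own gene, against 1 of 78 alpha values, 1 of 114 beta values and 3255 of 71682 values of all genes (4.54%). More than 4-fold between replicates 2 and 3 of 1 group separated 7 of 21 gamma genes (33.3%), 1 of 19 beta genes and 0 of 13 alpha genes, against 0.511% of the 11947 genes of that level. The 7 were Pcdhgb1, Pcdhga4, Pcdhga6, Pcdhgb5, Pcdhga9, Pcdhgb8 and Pcdhgc4. Alpha genes of that level, which also share constant exons, had their 1 value more than 2-fold from the median in Pcdhac1 (278 in NGPF2 1). Genes below that level were left out, among them Pcdha8, Pcdhb21 and Pcdhga8, which also had values more than 2-fold from their own median. No cause of the gamma spread was tested, and the division of reads among genes with shared exons and a difference between cultures cannot be told apart in these values.

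The 1 beta gene was Pcdhb19, at 539, 0 and 345 in the NGPF2 libraries, against 437, 443 and 367 in the vehicle libraries. Its 0 in NGPF2 2 allows up to 3.59 normalized counts, from 3 counts in that library, an allowance for counting error only. Of the 11947 genes with a mean of at least 100, 13 were at 0 in exactly 1 library. Because its other 5 values lie between 345 and 539, no fold change is given for Pcdhb19 here. Pcdhb21, which averaged 8.92 per kilobase, was at 24.3, 114 and 28.7 with NGPF2, against 9.67, 10.7 and 40.6 with vehicle, and its highest value came from NGPF2 2 as well.

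The comparison of NGPF2 with vehicle over the 3 pairs asked whether any of these adhesion genes differed after 2 h. No member passed (0 of 58), as no gene of the table did (0.0% of 16653). At an unadjusted p under 0.05 there were 2 members, Pcdhgc3 and Pcdhga9, and 2166 of all genes, and voom on recovered counts also called 0. The smallest adjusted p of any member was 0.379, shared by Pcdhgc3 (log2 difference -0.53, SE 0.19) and Pcdhga9 (1.21, SE 0.44). Estimates were positive for 14 of 14 alpha genes (median 0.18), 9 of 22 beta genes (median -0.02) and 8 of 22 gamma genes (median -0.13), beside a median of -0.01 over all genes. With scaling to library totals, which moved the median of all genes to -0.09, 11 of 14 alpha genes were positive.

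Pair by pair, the clusters parted in pairs 2 and 3 and not in pair 1. The median log2 difference of the alpha genes was 0.03, 0.30 and 0.24 in pairs 1, 2 and 3, that of the beta genes 0.06, -0.12 and -0.13, and that of the gamma genes 0.03, -0.01 and -0.32. Over all genes the medians were within 0.01 of 0 in every pair. In pairs 2 and 3 alike, 10 of 14 alpha genes were higher with NGPF2 and 0 lower, beside 36.3% higher and 36.9% lower of all genes. Of the 22 beta genes 3 were higher and 11 lower, and of the 22 gamma genes 6 were higher and 10 lower. These counts are a description of libraries from the same 2 pairs and were given no test.

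**Figure D3:**
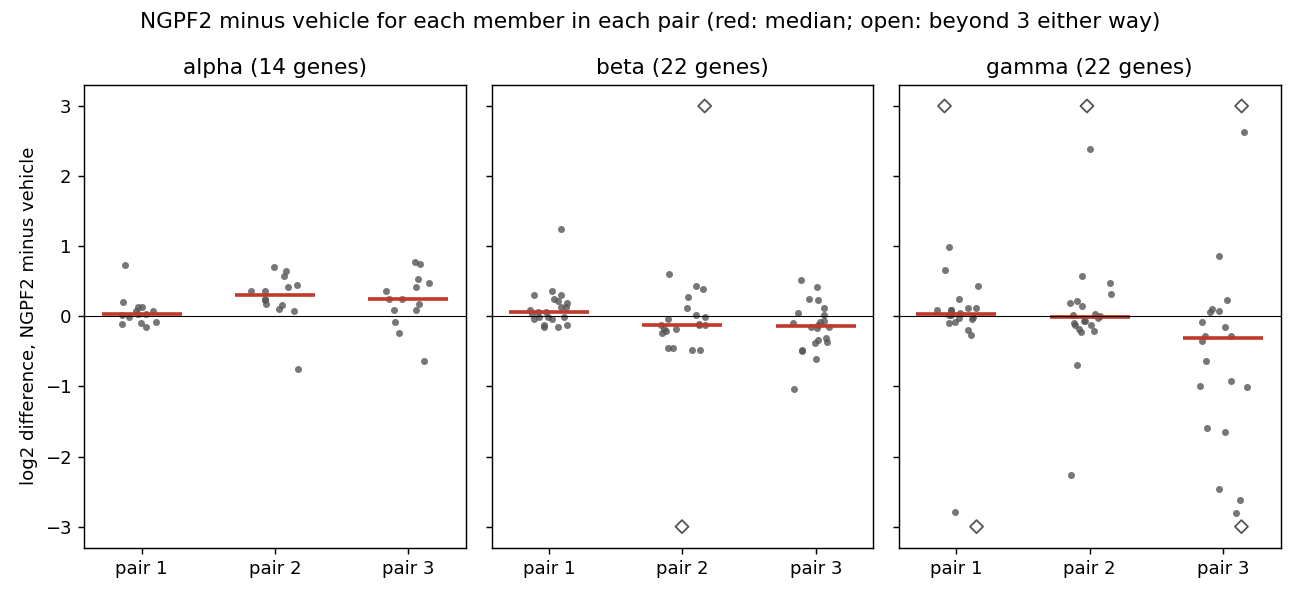
log2 difference (NGPF2 minus vehicle, y axis) of each clustered protocadherin in pairs 1, 2 and 3 (x axis), by cluster, with the median as a red line; open symbols mark values beyond 3 in either direction, drawn at 3. Alpha medians are 0.03, 0.30 and 0.24 in pairs 1, 2 and 3, and the gamma points of pair 3 are the most spread.

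In sums, the 12 alpha genes other than the C types held 5610, 5923 and 5729 normalized counts with NGPF2, against 5606, 4950 and 4799 with vehicle. NGPF2 2 and 3 lay above vehicle 2 and 3, and replicate 1 was level between the groups. The beta sum was 7256, 5692 and 5675 with NGPF2, against 6822, 6536 and 5996 with vehicle. Here NGPF2 2 and 3 lay below all 3 vehicle libraries and NGPF2 1 above them, but without Pcdhb19, at 0 in NGPF2 2, the sums were 6718, 5692 and 5330 with NGPF2, against 6385, 6093 and 5628 with vehicle, and NGPF2 2 lay above vehicle 3. The whole gamma sum was 29006, 25552 and 24816 with NGPF2, against 28500, 27272 and 27889 with vehicle, so that NGPF2 2 and 3 again lay below every vehicle library. As log2 ratios of sums, pairs 1, 2 and 3 gave 0.01, 0.34 and 0.17 for alpha, 0.09, -0.20 and -0.08 for beta (-0.10 in pair 2 without Pcdhb19) and 0.03, -0.09 and -0.17 for gamma. The gamma A and B types alone gave -0.08, -0.04 and 0.23, positive in pair 3 where the whole gamma cluster was negative.

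In the sample titles, both groups carry a common library name stem for replicates 2 and 3 that replicate 1 lacks, so these 4 libraries were also compared by themselves, 2 against 2. 3 of 58 members passed, beside 21.1% of all genes. Pcdha2 and Pcdha5, alpha genes whose variable exons lie near the start of the cluster, rose (2 of 58 members, beside 9.77% of all genes). Pcdhgc3, a gamma C type, fell (1 of 58, beside 11.3% of all genes). The share of members that passed was thus below that of all genes in both directions.

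Pcdha2 (ENSMUSG00000104148, 36939205 to 37187657) stood at 563, 439 and 433 with NGPF2, against 564, 322 and 298 with vehicle. Pcdha5 (ENSMUSG00000103092, 36960440 to 37187657) stood at 620, 583 and 537 with NGPF2, against 614, 390 and 402 with vehicle. In both genes NGPF2 2 and 3 lay above vehicle 2 and 3, and the libraries of replicate 1 were nearly equal. Within replicates 2 and 3 the log2 difference was 0.49 for Pcdha2 (SE 0.12, adjusted p = 0.0420) and 0.50 for Pcdha5 (SE 0.11, adjusted p = 0.0343). Neither passed with the replicate number as a block (adjusted p = 0.0659 for Pcdha2 and 0.0528 for Pcdha5) or with library totals as scaling (0.0824 and 0.0643). Nor did they with no filter on low values (0.0543 and 0.0552) or with a variance prior without a trend (0.0691 and 0.0702). Both passed with a pseudocount of 8, a mean of at least 50, quantile scaling and voom on recovered counts. Leaving out 1 of the 4 libraries leaves 1 sample in a group, so such fits cannot decide whether the 2 genes pass.

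Pcdhgc3 (ENSMUSG00000102918, 37806364 to 37841873) stood at 5088, 2420 and 1960 with NGPF2, against 5034, 3915 and 3721 with vehicle. NGPF2 2 and 3 were the lowest libraries of the 6, and those of replicate 1 differed little. Its log2 difference in replicates 2 and 3 was -0.81 (SE 0.12, adjusted p = 0.0118), and with the replicate block it passed as well (adjusted p = 0.00379), beside Pcdhga9 on the higher side. It did not pass with no filter on low values (adjusted p = 0.0792) or with a variance prior without a trend (0.0630). Without vehicle 2 or vehicle 3 no gene of the table passed, and the adjusted p of Pcdhgc3 was 0.174 without vehicle 2 and 0.166 without vehicle 3. Without NGPF2 2 or NGPF2 3 it passed (0.0122 and 0.0170). Without NGPF2 2, Pcdhga2 and Pcdhga9 passed too, and without NGPF2 3, Pcdhb19 and Pcdhgb4.

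The other C types did not pass in replicates 2 and 3. Pcdhgc4, the gamma isoform on which neuronal survival depends in mice, was at 3956, 1098 and 962 with NGPF2, against 2500, 1197 and 5327 with vehicle (log2 difference -1.30, SE 0.68, adjusted p = 0.233). Pcdhgc5 was at 978, 2407 and 2303 with NGPF2, against 949, 1926 and 2136 with vehicle (0.21, SE 0.08, adjusted p = 0.135). Both NGPF2 libraries of Pcdhgc5 lay above vehicle 2 and 3, while vehicle 2 and 3 of Pcdhgc4 differed 4-fold or more. Pcdhac2 was at 3706, 4917 and 4428 with NGPF2, against 3640, 3665 and 4160 with vehicle (0.26, SE 0.10, adjusted p = 0.123). Pcdhac1 was at 278, 139 and 84.4, against 253, 84.8 and 131 (0.04, SE 0.34, adjusted p = 0.952), with overlapping values in replicates 2 and 3. Together the 3 gamma C types summed to 10022, 5924 and 5225 with NGPF2, against 8483, 7037 and 11184 with vehicle.

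**Figure D4:**
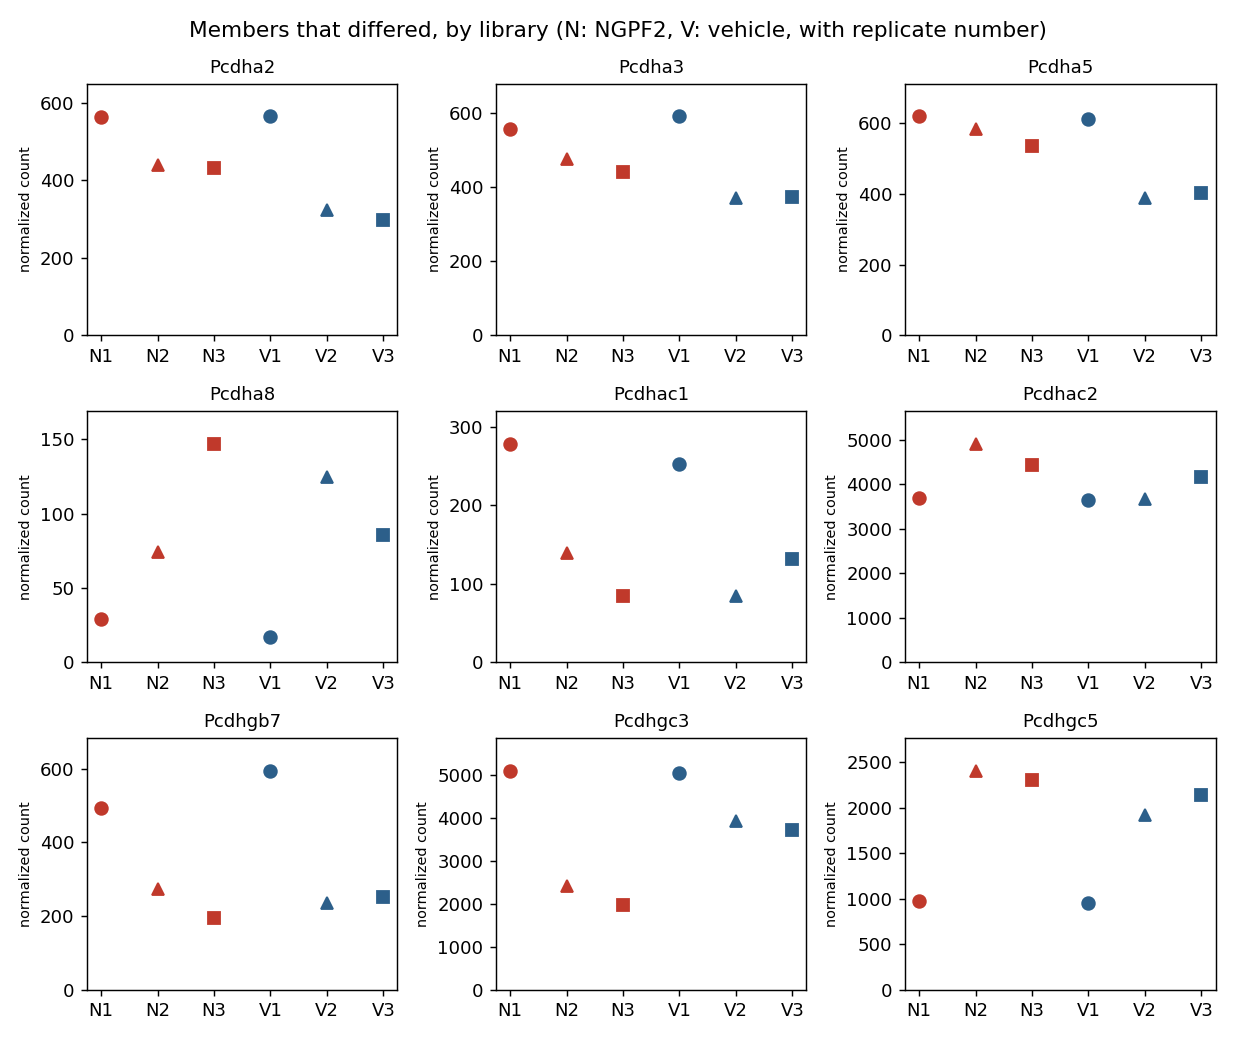
Normalized count (y axis, from 0) of 9 clustered protocadherins in the NGPF2 (N) and vehicle (V) libraries, by replicate number. Pcdha2, Pcdha5 and Pcdhgc3 differ between the groups in replicates 2 and 3, where Pcdhgc3 is at 2420 and 1960 with NGPF2 against 3915 and 3721 with vehicle, and Pcdha8 and Pcdhgc5 are low in both libraries of replicate 1.

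Estimates in replicates 2 and 3 were positive for 14 of 14 alpha genes (0.00 to 0.51, median 0.24), for 9 of 22 beta genes (median -0.12) and for 8 of 22 gamma genes (median -0.17), beside 8270 of 16653 genes and a median of 0.00 over all genes. Scaling to library totals moved the median of all genes to -0.13, and 9 of 14 alpha, 4 of 22 beta and 6 of 22 gamma genes were then positive. Under it no alpha gene passed and 4 of 58 members passed on the lower side (Pcdhb22, Pcdhga1, Pcdhga3 and Pcdhgc3), beside 16.0% of all genes. Under quantile scaling 14 of 14 alpha and 12 of 22 beta genes were positive, and under voom 13 of 14 alpha genes. The most abundant beta genes differed little, with log2 differences of 0.02 (SE 0.09) for Pcdhb9, 0.02 (SE 0.12) for Pcdhb7 and -0.14 (SE 0.11) for Pcdhb20, all 3 negative with library totals. Among other abundant members, Pcdha6 gave 0.35 (SE 0.10) and Pcdha12 0.01 (SE 0.15; -0.12 with library totals). For Pcdhgb8 and Pcdhgb1 the SE was 3.00 and 1.43, so that a difference of several fold would not have been detectable. None of these 7 passed (adjusted p from 0.0698 to 0.965).

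Marker genes of other cell types moved with the same comparison. All 13 astrocyte markers tested fell in replicates 2 and 3, and their sum (14 genes) was 32989, 20071 and 16763 with NGPF2, against 29065, 76803 and 69215 with vehicle. Also lower with NGPF2 were 8 of 12 microglial, 4 of 6 oligodendrocyte precursor, 3 of 9 fibroblast and mural and 8 of 10 neural progenitor markers, and 1 fibroblast and mural marker, Tagln, rose. Of 14 neuronal markers 7 rose and 1, Gap43, fell. These counts stand beside 9.77% of all genes that rose and 11.3% that fell in replicates 2 and 3. Neuronal sums were 276240, 334340 and 328260 with NGPF2, against 281830, 271630 and 280130 with vehicle, so the labelled cell type was present in every library. Glial sums also ran lower in NGPF2 2 and 3, from 87.3 to 142 against 606 to 681 for microglia and from 1622 to 1745 against 7818 to 8273 for oligodendrocyte precursors. Progenitor sums there were 5070 to 5254 against 13664 to 14599, and fibroblast and mural sums 408 to 427 against 600 to 666. In replicate 1 these sums were 1894 against 1821 for microglia, 5668 against 5600 for oligodendrocyte precursors, 10434 against 10414 for progenitors and 3855 against 4285 for fibroblast and mural cells. Among the markers at 0, Fcer1g and Aif1 were at 0 in both NGPF2 2 and 3, Cx3cr1 in NGPF2 2, and Itgam and Lum in NGPF2 3. Fewer cells of a type and less RNA per cell cannot be told apart in these bulk cultures, and the part of these markers in the lower Pcdhgc3 and the higher Pcdha2 and Pcdha5 was not tested.

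The test of whether the NGPF2 effect differed between replicates 2 and 3 and replicate 1 called 1 of 58 members, beside 2.49% of all genes. It was Pcdhga12 (ENSMUSG00000102428, 37765580 to 37841873), with a difference of effects of 2.90 (SE 0.18, adjusted p = 0.00890). The call rests on vehicle 1, at 7074, since the other 5 libraries lay between 762 and 1023, and it cannot be made without that library, the only vehicle library of its replicate. It was lost with no filter on low values (adjusted p = 0.113) and with a variance prior without a trend (0.0793). Pcdhgc3 had a difference of effects of -0.82 (SE 0.20, adjusted p = 0.112), Pcdha2 of 0.49 (SE 0.19, 0.241) and Pcdha5 of 0.48 (SE 0.18, 0.232). None of these 3 passed, but with voom on recovered counts Pcdhgc3 did (-0.81, adjusted p = 0.0406). Replicate 1 has 1 library per group here, assumed to vary like replicates 2 and 3. With the replicate block 3 of 58 members were called, beside 3.16% of all genes (Pcdhgb4 and Pcdhga12 with a positive and Pcdhgb8 with a negative difference).

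The vehicle cultures were then compared between the library name groups, replicates 2 and 3 against replicate 1, where no NGPF2 was present. 8 of 58 members passed, beside 19.9% of all genes. Higher in replicates 2 and 3 were 2 of 58 (beside 10.5%), Pcdha8 and Pcdhgc5, and lower were 6 of 58 (beside 9.42%), Pcdha2, Pcdha3, Pcdha5, Pcdhgb4, Pcdhgb7 and Pcdhga12. By cluster these were 4 of 14 alpha, 0 of 22 beta and 4 of 22 gamma genes. Culture, library and time cannot be told apart in this comparison, and 1 vehicle library stands on one side.

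Pcdhgc5 (ENSMUSG00000102543, 37819513 to 37841873), the gamma gene nearest the constant exons, was at 1926 and 2136 in vehicle 2 and 3, against 949 in vehicle 1 (log2 difference 1.09, SE 0.11, adjusted p = 0.00508). Its NGPF2 libraries split in the same way, at 2407 and 2303 in replicates 2 and 3, against 978 in replicate 1. Pcdha8 was at 125 and 85.9 in vehicle 2 and 3, against 17.4 in vehicle 1 (2.51, SE 0.51, adjusted p = 0.0292), and at 74.1 and 147 in NGPF2 2 and 3, against 29.4 in NGPF2 1. For both genes all 4 libraries of replicates 2 and 3 were above both of replicate 1.

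The alpha genes Pcdha2 (-0.86, SE 0.13, adjusted p = 0.0155), Pcdha3 (-0.67, SE 0.13, 0.0266) and Pcdha5 (-0.63, SE 0.13, 0.0299) were lower in vehicle 2 and 3 than in vehicle 1. Pcdha3 was at 370 and 373 in vehicle 2 and 3, against 591 in vehicle 1, and at 475 and 442 in NGPF2 2 and 3, against 557 in NGPF2 1. For all 3 genes NGPF2 2 and 3 thus lay between vehicle 2 and 3 on one side and both libraries of replicate 1 on the other. Pcdhgb7 was at 236 and 250 in vehicle 2 and 3, against 595 in vehicle 1 (-1.29, SE 0.24, adjusted p = 0.0228), and at 274 and 196 in NGPF2 2 and 3, against 494 in NGPF2 1.

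For Pcdhgb4 the NGPF2 cultures went the other way, higher in replicates 2 and 3 than in replicate 1. Those of Pcdhga12 did not show a difference of the size seen in the vehicle cultures. Pcdhgb4 was at 288 and 395 in vehicle 2 and 3, against 2761 in vehicle 1 (-3.03, SE 0.69, adjusted p = 0.0389), and at 1515 and 465 in NGPF2 2 and 3, against 297 in NGPF2 1. The log2 difference of Pcdhga12 was -3.15 (SE 0.13, adjusted p = 0.00129), from the same high vehicle 1 library as above. Averaged over both treatments, 15 of 58 members passed, beside 39.3% of all genes. On the lower side these were Pcdha2, Pcdha3, Pcdha5, Pcdhac1, Pcdhb3, Pcdhb4, Pcdhb11, Pcdhgb2, Pcdhga7, Pcdhgb7, Pcdhga11, Pcdhga12 and Pcdhgc3, and on the higher side Pcdha8 and Pcdhgc5.

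Counting libraries without a model, 18 of 58 members were lower in all 4 libraries of replicates 2 and 3 than in both of replicate 1, beside 26.9% of the genes kept, and 4 of 58 were higher, beside 24.9%. The lower ones were 8 of 22 beta genes (Pcdhb2 to Pcdhb6, Pcdhb8, Pcdhb10 and Pcdhb11), 6 of 22 gamma genes and 4 of 14 alpha genes. The higher ones were Pcdha8, Pcdhb1, Pcdhb9 and Pcdhgc5. Pcdhb11, as an example of the beta genes, was at 166 and 108 in NGPF2 2 and 3 and 181 and 136 in vehicle 2 and 3, against 303 in NGPF2 1 and 261 in vehicle 1.

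Regulators of protocadherin promoter choice were mixed in replicates 2 and 3. Of 27 tested, 3 rose and 3 fell (median log2 difference -0.04), a share near that of all genes, of which 9.77% rose and 11.3% fell. Nipbl, which loads cohesin, fell by 0.58 (log2 difference -0.58, adjusted p = 0.0119), at 1794, 1102 and 1023 with NGPF2, against 1691, 1613 and 1554 with vehicle. Rad21, a cohesin subunit, gave -0.39 (adjusted p = 0.0207). Tet3, a methylcytosine dioxygenase, rose by 0.41 (adjusted p = 0.0125), and Dnmt3a, a DNA methyltransferase, by 0.53 (adjusted p = 0.0196), at 11281, 15045 and 15612 with NGPF2, against 9360, 9857 and 11498 with vehicle. For both Nipbl and Dnmt3a the libraries of replicates 2 and 3 did not overlap between the groups.

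Of 29 signalling and processing partners, 3 rose and 3 fell (median 0.05), again beside 9.77% and 11.3% of all genes. Wasf1, a subunit of the WAVE actin-regulating complex that protocadherin tails can bind, rose by 0.72 (adjusted p = 0.00456), at 5567, 13304 and 12910 with NGPF2, against 5348, 8260 and 7654 with vehicle. Prkca, a protein kinase C, rose by 0.43 (adjusted p = 0.0231). Abi2, another WAVE complex subunit, gave -0.82 (adjusted p = 0.0233), at 4256, 2405 and 2164.5 with NGPF2, against 1987, 3489 and 4659 with vehicle. In replicate 1 Abi2 was higher with NGPF2. Within replicates 2 and 3, subunits of the same complex thus differed in opposite directions. Prkcd, a second protein kinase C, gave -3.02 (adjusted p = 0.0191), at 190, 20.3 and 7.18 with NGPF2, against 185, 121 and 93.0 with vehicle. Its value in NGPF2 3 is close to 5.38, the level of 3 counts in that library.

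Calls among relatives outside the clusters and among the catenins are to be read beside the same 9.77% of all genes that rose and 11.3% that fell. Of 11 non-clustered protocadherins 2 fell, Pcdh20 (-0.72, adjusted p = 0.0119) and Pcdh11x (-1.32, 0.0162), and 0 rose (median -0.19). Pcdh11x was at 2620, 371 and 345 with NGPF2, against 2487, 723 and 1102 with vehicle, far lower in replicates 2 and 3 than in replicate 1. Of 9 large cadherins, Fat4 (0.66, adjusted p = 0.0134) and Celsr2 (0.37, 0.0231) rose and Fat1 (-1.33, 0.00912) fell. Of 16 classical and type II cadherins 3 rose and 3 fell, with Cdh8 at 0.92 (adjusted p = 0.00677), Cdh20 at -1.49 (0.00600), Cdh12 at -0.97 (0.00717) and Cdh10 at -0.66 (0.0107). Of 7 catenins, which link classical cadherins to actin, Ctnna1 (-1.79, adjusted p = 0.00312) and Ctnnd1 (-0.42, 0.0477) fell. Over the 3 pairs no gene of any of these lists passed.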

How the data were processed

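RNA-seq of 6 cultures was analysed from 1 deposited table. Per the labels' protocols, poly(A) RNA was selected with oligo(dT) beads, fragmented and amplified. DESeq 1.22.1, Cuffnorm, STAR 2.5, FastQC and the build mm10 appear in the submitters' processing notes. Which tool counted the reads, with which annotation and strand setting, is not given in the sources used here. The values deposited by the authors are log2 of a normalized count plus 1, although the table is named as FPKM. After 2 was raised to each value and 1 subtracted, 100% were whole multiples of 1 step per library (tolerance 0.01 of a count), and the inverse step equals the median-of-ratios size factor. Counts may still be rounded estimates. Totals ran from 17478070 to 45193691.

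Of 31245 genes, 16653 with a mean of at least 10 normalized counts were tested on the deposited log2 values (pseudocount 1, which understates changes of low genes) with limma 3.58.1 in R 4.3.3, 2-sided, with a variance trend on the mean level and Benjamini-Hochberg adjustment over all genes kept (threshold 0.05). Over 3 pairs the replicate number was a block. Replicates 2 and 3 were fitted without a block, and the difference of effects and the comparison of vehicle cultures came from a fit with a mean for each library name group and treatment. The pairing rests on the series' design. Deviations from group means correlated across 16653 genes at 0.594, 0.299 and 0.333 for same-numbered libraries, and at 0.320 and 0.342 for replicates 2 and 3 crossed. The columns of replicate 1 were assigned by elimination and initial, since they carry another digit. The labels do not say which animals gave each culture, so p-values measure the spread between these samples.

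Members, lists, filter and tests were chosen with earlier results of these data known. The planned length, exonic bases shared with no other gene, is 0 for Pcdhga10, so bases shared with no other member were used. 2 identifiers carry the symbol Pcdha11 and count as 2 members. Named members were those that passed in any comparison, the C types and the 3 highest per kilobase in each cluster, and in other lists up to 4 genes of smallest p. Genes given for their spread between libraries, and Pcdhb1, Pcdhb11, Pcdhb19 and Pcdhb21, were chosen after their values were seen. The fits were also run on simulated counts that had no shift of replicate 1 and no jumps of single genes. That run does not bear on these features of the data. Alternatives covered pseudocount, filter, scaling, variance prior, voom, the block and left-out libraries.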

Additional observations from a re-analysis of the deposited data

Results flagged for a closer look

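Pcdhga12 was set apart because the effect of NGPF2 differed between replicates 2 and 3 and replicate 1 by a test of the difference itself (2.90 on the log2 scale, SE 0.18, adjusted p = 0.00890, limma). Its values were 1023, 919 and 797 normalized counts with NGPF2, against 7074, 829 and 762 with vehicle. The SE comes from the spread within replicates 2 and 3 and does not measure the spread of replicate 1. Between replicates 2 and 3 of 1 group, 7 of 21 gamma genes differed more than 4-fold. The difference rests on vehicle 1, the single vehicle library of replicate 1. It did not pass with no filter on low values (adjusted p = 0.113) or with a variance prior without a trend (0.0793). Without replicate 2 or replicate 3 it was 2.85 and 2.94, with no residual degrees of freedom for a test. Groups of 3 libraries were not screened for single far values.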

How the results depend on the processing

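Over the 3 pairs, 1 gene and 0 members passed with a pseudocount of 8 and with no replicate block, and leaving out 1 pair gave 0 to 3275 genes and 0 to 2 members. In replicates 2 and 3, 1978 genes and 0 members passed with no filter on low values, 1535 genes and 0 members with a variance prior without a trend, and 0 to 3206 genes and 0 to 3 members without 1 library; with the replicate block 3275 genes and 2 members passed, and with voom on recovered counts 3963 genes and 4 members. For the difference of effects, no filter gave 0 genes and 0 members, a mean of at least 50 gave 733 genes, a prior without a trend 22 genes and 0 members, voom 1368 genes and 4 members and the replicate block 3 members. For the vehicle cultures, no filter gave 5 members, a prior without a trend 1232 genes and 3 members, voom 4999 genes, the mean over both treatments 6544 genes and 15 members, and leaving out vehicle 2 or 3 gave 0 to 1 genes and 0 members. The replicate block cannot be fitted there.

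No member that had passed changed sign under any alternative. With library totals the sign turned for 8 of 58 members over the 3 pairs, 12 in replicates 2 and 3, 6 for the difference of effects and 2 in the vehicle cultures, and with quantile scaling for 8, 4, 6 and 2. Among the C types, those over the 3 pairs were Pcdhac1 (-0.0147 with library totals, -0.25 to 0.42 with 1 pair left out) and Pcdhgc4 (-1.30 to 0.27 with 1 pair left out). Of the other members given with a log2 difference, Pcdha12, Pcdhb7, Pcdhb9 and Pcdhb20 turned there with library totals and Pcdhgb7 with quantile scaling. With 1 pair left out, Pcdha8, Pcdhb20, Pcdhgb1, Pcdhgb4, Pcdhgb8 and Pcdhga12 turned. In replicates 2 and 3 the members given with a log2 difference that turned were Pcdhga12 (-0.02), Pcdha12 (-0.12), Pcdhb7 (-0.11), Pcdhb9 (-0.11), Pcdhac1 (-0.0903) and Pcdha8 (-0.11) with library totals. Pcdhgb7 turned with quantile scaling (0.14) and Pcdha8 with voom (-0.11). With 1 library left out they were Pcdhac1 (-0.32 to 0.39), Pcdha8 (-0.48 to 0.50), Pcdhgb7 (-0.31 to 0.17), Pcdha12 (-0.16 to 0.19), Pcdhb7 (-0.0441 to 0.0822), Pcdhgb1 (-1.46 to 2.83) and Pcdhgb8 (-5.35 to 2.56). In the vehicle cultures Pcdhgc4 turned (-0.0012 with library totals, -0.0021 with quantile scaling, -0.0305 with voom, -0.96 over both treatments, -1.06 to 1.09 with vehicle 3 or 2 left out). Of the others given, Pcdhb20 and Pcdhga9 turned there over both treatments, and Pcdhb7 and Pcdhga9 with vehicle 2 left out. The cause was not tested, except that no filter brings in more genes (26510) and left-out libraries leave fewer degrees of freedom. Depth (17478070 to 45193691 counts) limits Pcdhb1 and Pcdhb21 most.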

Other observations

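Within the alpha cluster, the log2 difference in replicates 2 and 3 was lower toward the end of the gene order from Pcdha1 to Pcdhac2 (Spearman's rho -0.61 across 14 genes, which share libraries and constant exons, as a description only). The same measure was -0.23 over the 22 beta and -0.20 over the 22 gamma genes. For vehicle 2 and 3 against vehicle 1, the alpha rho went the other way, at 0.42. Both alpha values use the libraries vehicle 2 and 3. The level per kilobase had no such order, with rho 0.05, -0.08 and 0.18 in the alpha, beta and gamma clusters.

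Gm38182, a transcript that overlaps exons of all 22 gamma members, was at 150, 105 and 19.7 normalized counts with NGPF2, against 159, 145 and 57.3 with vehicle. It was lowest in replicate 3 of both groups.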
